A study of Mus musculus with 12 samples.

Results

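Puf60 with exon 5 was put back into cells that had lost their own Puf60, and the question here is what in the transcriptome stayed away from control all the same, and what went past it. The comparison rests on 4 of the 12 libraries of the series. In the pEx5 induced group, N2A cells of the pEx5 line received a Puf60 siRNA at 15 nM and doxycycline at 2 µg/ml for 24 h. In the pEx5 control group the same line received a non-targeting siRNA at 15 nM and no doxycycline. For the induced libraries the description field says both that the allele was not induced and that doxycycline was given. The treatment field, which says that doxycycline was added, was followed here, and Puf60 junction reads and exon 5 inclusion, given below, were above control in these libraries. Each group held 2 libraries, A and B, and cells were harvested 48 h after transfection. N2A is a mouse neuroblastoma line. The pEx5 line carries a Flag-tagged, siRNA-resistant Puf60 cDNA with exon 5 behind a doxycycline-inducible promoter at a Flp-In site, and the mEx5 line carries the cDNA lacking exon 5. The other 8 libraries, used only to sort and set off the results, are the pEx5 knockdown (Puf60 siRNA without doxycycline) and the induced, knockdown and control groups of the mEx5 line, again with 2 libraries each. No control received doxycycline, so the drug, the cDNA and what remained of the knockdown cannot be told apart in this difference. The series describes A and B as biological duplicates without saying that they came from separate cultures. A p-value here therefore reflects the spread between these libraries, which may be technical. Whether either line is a single clone is not given.

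Puf60 binds RNA and resembles the large U2AF subunit. It contacts the pyrimidine-rich stretch before 3′ splice sites and helps the U2 snRNP settle at the branch point, which is a step that exons with weak 3′ splice sites depend on. Loss of such a factor typically shows as exon skipping, as retained introns, and as use of another 3′ splice site. Its own exon 5 is alternatively spliced and is used more in neural cells. Microexons, which here means exons of up to 27 nt, are a class of exons used mainly in neurons.

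The libraries held 27135220 and 26272070 exon-exon junction reads in the pEx5 induced group and 41494994 and 36766280 in pEx5 controls, with 22908930 to 41494994 over all 12 libraries. Induced libraries were thus the shallower ones in this comparison, and the part of depth in the results was not tested beyond the read weights of the fit. No library stood apart from its partner: the 2 libraries of a group correlated at 0.995 to 0.997 in log2 CPM of junction reads, where CPM stands for counts scaled to a common library size. The noradrenergic neuroblastoma markers Hand2, Phox2a and Stmn2 were present in both groups. Of the 18 listed markers of this kind 15 were measured on junction reads, and 1 had an RPKM (reads scaled by transcript length and depth) of 0 in both groups. Summed RPKM of macrophage markers was 0.56 in induced cells and 0.78 in controls, and that of fibroblast markers 0.97 in induced cells and 0.75 in controls. Astrocyte markers summed to 1.58 in induced cells and 1.37 in controls, and endothelial markers to 0.74 in induced cells and 0.37 in controls. Of 2 endothelial markers measured on junction reads 1 was called higher.

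The exons that carry the findings are given first. Their sequences were cut from GENCODE vM21 transcripts (GRCm38) after matching each event to an annotated exon with the same length and the same flanking intron lengths, and all are lower case because no base is singled out. The Ttc3 exon (chr16:94387337-94387390, plus strand, coding) stayed low after induction. The adjacent Cask exons of 69 nt (chrX:13552373-13552441) and 36 nt (chrX:13550947-13550982, both minus strand and coding) went past control in opposite directions, as did the Tead1 exon (chr7:112841888-112841950, plus strand, coding) and the Cdk5rap2 microexon (chr4:70246948-70246974, minus strand, coding). The microexons of Ncor1 (chr11:62403436-62403462, minus strand), Lphn1 (named Adgrl1 in the annotation, chr8:83926262-83926276, plus strand), Dock4 (chr12:40794597-40794623, plus strand), Max (chr12:76961263-76961289, minus strand) and Vps29 (chr5:122356794-122356805, plus strand) are all coding, have a length that keeps the reading frame, and stayed low.
Ttc3: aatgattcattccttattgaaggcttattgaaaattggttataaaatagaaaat
Cask 69 nt: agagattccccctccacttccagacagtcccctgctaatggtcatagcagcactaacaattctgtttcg
Cask 36 nt: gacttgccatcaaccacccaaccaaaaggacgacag
Tead1: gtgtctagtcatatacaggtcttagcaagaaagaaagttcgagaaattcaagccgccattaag
Cdk5rap2: gggctgacgggaccacaggcataccag
Ncor1: tggagtacctgcaaggcgcatgatgaa
Lphn1: aagtggagcagaaag
Dock4: aattccactatttggtccctaccctag
Max: gaagagcaaccgaggtttcaatctgcg
Vps29: gctgggcacaga

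Puf60 itself was above control after induction. Its junction reads stood at 617 and 631 CPM in pEx5 induced libraries, 58.3 and 64.4 CPM in pEx5 knockdown libraries, and 321 and 296 CPM in pEx5 controls. Induced libraries thus lay above both other groups without overlap, at a log2 difference of 1.02 ± 0.06 (SE) over control (limma, adjusted p = 5.40e-10). These reads hold the cDNA as well as the endogenous transcript. Exon 5 was included at 88.0 and 89.4% PSI (percent spliced in, the share of transcripts that use an exon, splice site or intron) in induced libraries, against 39.1 and 35.8% in controls. In the knockdown it stood at 23.2 and 19.8%. The Puf60 transcript pool, cDNA included, was thus more abundant than in control and held a larger share of the exon 5 form. That share differed by 51.2 points (limma, adjusted p = 2.68e-08). Puf60 protein was not measured in these libraries.

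Splicing was compared event by event with a limma fit weighted by read depth, over 22770 events whose mean PSI was 5 to 95 and that no library covered with fewer than 10 reads. Calls needed a difference of 10 PSI points or more and an adjusted p (Benjamini-Hochberg) below 0.05. In pEx5 induced cells 767 events in 616 genes differed from control, which is 3.37% of those tested: 259 were higher (1.14%) and 508 lower (2.23%). Skipping made up most of this, since 446 of the 8245 exons tested (5.41%) and 18 of the 281 microexons (6.41%) were lower, against 73 exons (0.885%) and 2 microexons (0.712%) that were higher. Introns went the other way, with 148 of 8863 (1.67%) more retained and 15 (0.169%) less retained. Of the 148 introns, 77 had balanced reads at both exon-intron junctions (deposited balance p of at least 0.05 in all 4 libraries), and for the rest one end was read more than the other. Alternative 3′ sites numbered 26 higher (0.861%) and 24 lower (0.795%) of 3019, and alternative 5′ sites 10 higher (0.423%) and 5 lower (0.212%) of 2362. In the pEx5 knockdown, against the same controls, 3470 events (15.2%) were called. The count was sensitive to the fit and to each library: 251 events were called without read weights, 428 without induced library A, 379 without induced library B, 347 without control library A and 380 without control library B.

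To tell changes that remained from changes that went past control, the 767 events were sorted by the knockdown in the mEx5 line, which shares no library with this comparison. There, 2940 events (12.9%) were called, 783 higher (3.44%) and 2157 lower (9.47%). An event called in the same direction in both is unrescued, and one called in opposite directions is overshooting. Of the 767 events, 494 (64.4%) were unrescued, 8 (1.04%) were overshooting, and 265 (34.6%) were not called on mEx5 knockdown. The unrescued class held 348 skipped exons, 13 skipped microexons and 66 retained introns, against 29 exons and 6 introns in the other directions, whereas 91 of the 265 events not called on knockdown were introns, 82 of them higher.

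**Figure D1:**
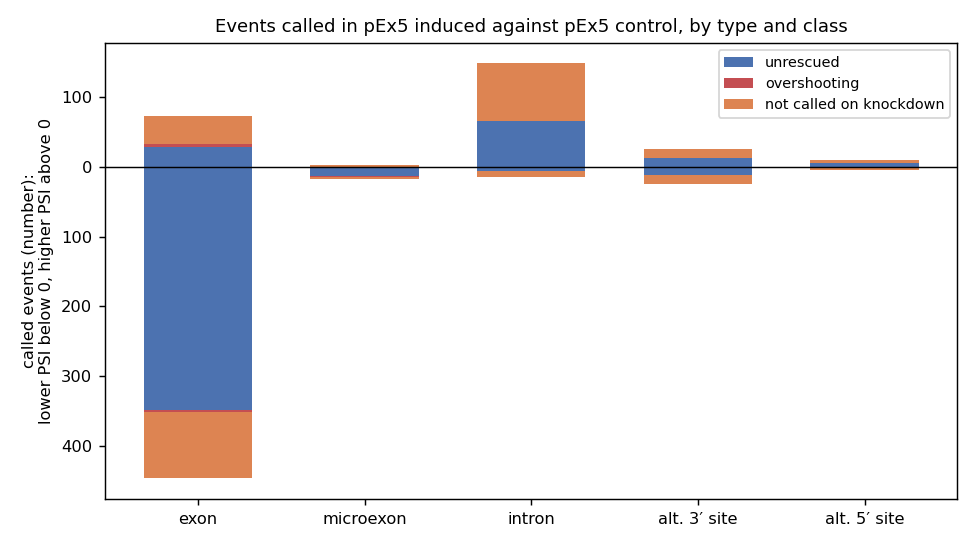
Number of events called in pEx5 induced against pEx5 control cells, by event type (horizontal axis) and direction (bars above 0 for higher PSI, below 0 for lower PSI); colours give the class. The tallest bar is the 446 exons with lower PSI, of which 348 were unrescued, and introns are the only type with many more higher (148) than lower (15) events.

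Knockdown targets moved back toward control to different degrees. Among the 2157 events lowered by mEx5 knockdown, the median PSI in the pEx5 line was 79.5 after induction, 63.5 on knockdown and 86.9 in control, and the median difference from control was -5.4 points after induction and -17.9 points on knockdown. Of these events 380 (17.6%) were still called lower, 4 were called higher, and 963 (44.6%) lay within 5 points of control. Over all 22770 events 64.3% lay within 5 points. Among the 783 events raised by mEx5 knockdown, 114 (14.6%) were still called higher and 4 lower, with a median difference of 6.1 points after induction and 13.8 points on knockdown. The induction and knockdown differences share the pEx5 controls.

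**Figure D2:**
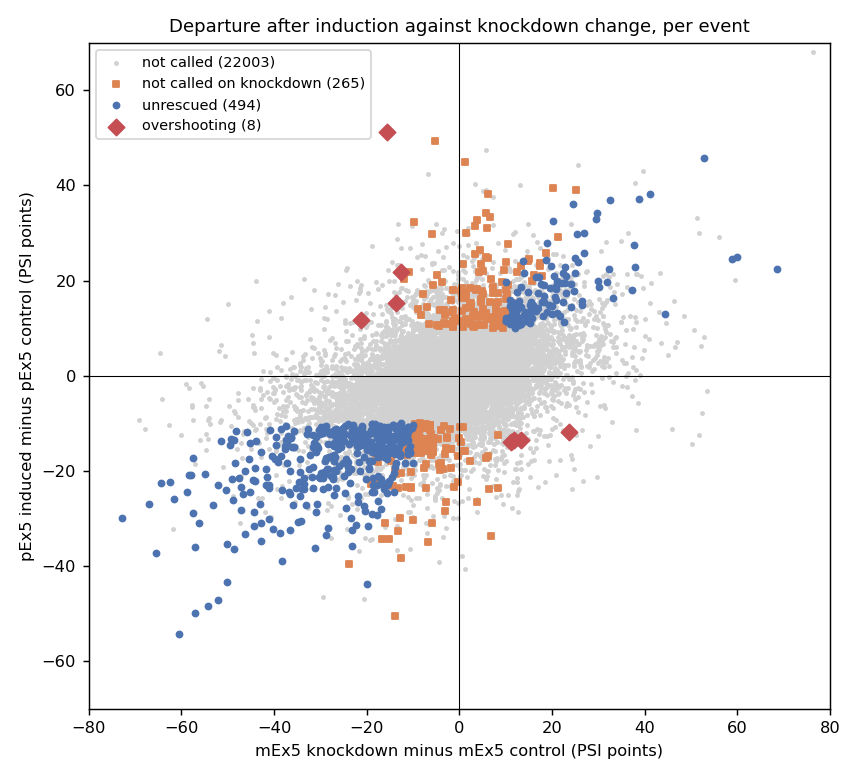
Each point is 1 of 22770 splicing events, with the mEx5 knockdown change on the horizontal axis and the pEx5 induced minus control difference on the vertical axis, both in PSI points and with no library in common. The 494 unrescued events (blue) lie in the lower left and upper right, and the 8 overshooting events (red) on the other diagonal, with Puf60 exon 5 the highest of them at 51.2 points.

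The unrescued events departed from control by a median of 15.8 points in either direction (quartiles 12.9 and 21.5), and by 24.4 points on pEx5 knockdown. In 155 of the 494 the departure was at least 20 points and in 38 at least 30 points. For 98 it was larger after induction than on knockdown in the same line. The 361 skipped exons and microexons among them were of ordinary size, with a median of 94 nt against 95 nt for the 1592 exons that mEx5 knockdown lowered but that were not called after induction. Their flanking introns were somewhat shorter (medians of 2762 and 2556 nt upstream and downstream, against 3342 and 3136.5 nt). They started from a lower control inclusion (median 80.2% against 90.4%) and had moved further on mEx5 knockdown (median -23.8 against -17.4 points), both of which bear on whether an exon can pass the call. Lengths divisible by 3 made up 46.3% of the unrescued skipped exons, 47.7% of the others and 44.4% of all exons tested. These are descriptions, with no test.

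Septin 8 (Sept8), a filament-forming GTPase, had the largest unrescued change among the alternative 3′ splice sites named here. The site with a listed length of 445 nt was used at 81.5 and 80.9% in pEx5 induced libraries, against 32.1 and 38.6% in controls, and the site of 265 nt at 11.9 and 13.2% in induced libraries, against 64.6 and 60.4% in controls. The knockdown libraries of the same line, at 88.9 and 87.6% for the longer site, lay close to the induced ones. The differences of 45.8 and -49.9 points (adjusted p = 5.58e-06 and 1.33e-06) rested on 308 to 340 reads a library. In the mEx5 line induction brought the longer site to 49.7 and 41.9%, near its control libraries at 37.9 and 34.7%, so the pEx5 departure exceeded the mEx5 one by 36.3 points (adjusted p of the difference = 0.00332). The exchange of one acceptor for the other on knockdown was thus mostly undone in mEx5 induced cells and mostly still in place in pEx5 induced cells.

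The Ttc3 exon printed above belongs to a ubiquitin ligase gene and showed the same arrangement. Its inclusion was 19.7 and 18.7% in pEx5 induced libraries, against 59.1 and 66.1% in controls, a difference of -43.4 points (adjusted p = 4.88e-06). The mEx5 line held 59.5 and 61.9% after induction and 68.9 and 63.9% in control. The departures of the lines differed by -37.7 points (adjusted p of the difference = 0.00181). A 95 nt exon of Crtc1, a coactivator of CREB, was included at 44.4 and 32.9% in pEx5 induced libraries, against 89.7 and 81.9% in controls. For Crtc1 the mEx5 departure was also large, at -31.1 points, and a difference between the lines was not called (adjusted p = 0.319). An exon of BC028528 was included at 25.6 and 22.1% in pEx5 induced libraries, against 71.8 and 84.5% in controls.

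Among events with more inclusion, a 127 nt exon of the SUMO isopeptidase gene Uspl1 was used at 79.9 and 78.5% in pEx5 induced libraries, against 43.6 and 40.8% in controls, on at least 1022 reads a library (adjusted p = 1.33e-06). A 71 nt exon of Slc9a5, a sodium-proton exchanger, was used at 70.1 and 63.7% in induced libraries, against 39.6 and 22.2% in controls (adjusted p = 0.00393). Groups without overlap were a condition for naming both events. The Uspl1 exon was close to its knockdown level of 86.9 and 84.4%. A 147 nt exon of Zfr2 was used at 89.3 and 80.6% in induced libraries, against 45.0 and 50.7% in controls, on 27 to 52 reads. The Zfr2 call was lost under 5 of 22 other settings or library omissions. An Fnbp1 intron was called at 68.4 and 69.4% in induced libraries, against 28.1 and 33.6% in controls, but its 2 exon-intron junctions were read unequally, so retention of the whole intron is not shown by that value.

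**Figure D3:**
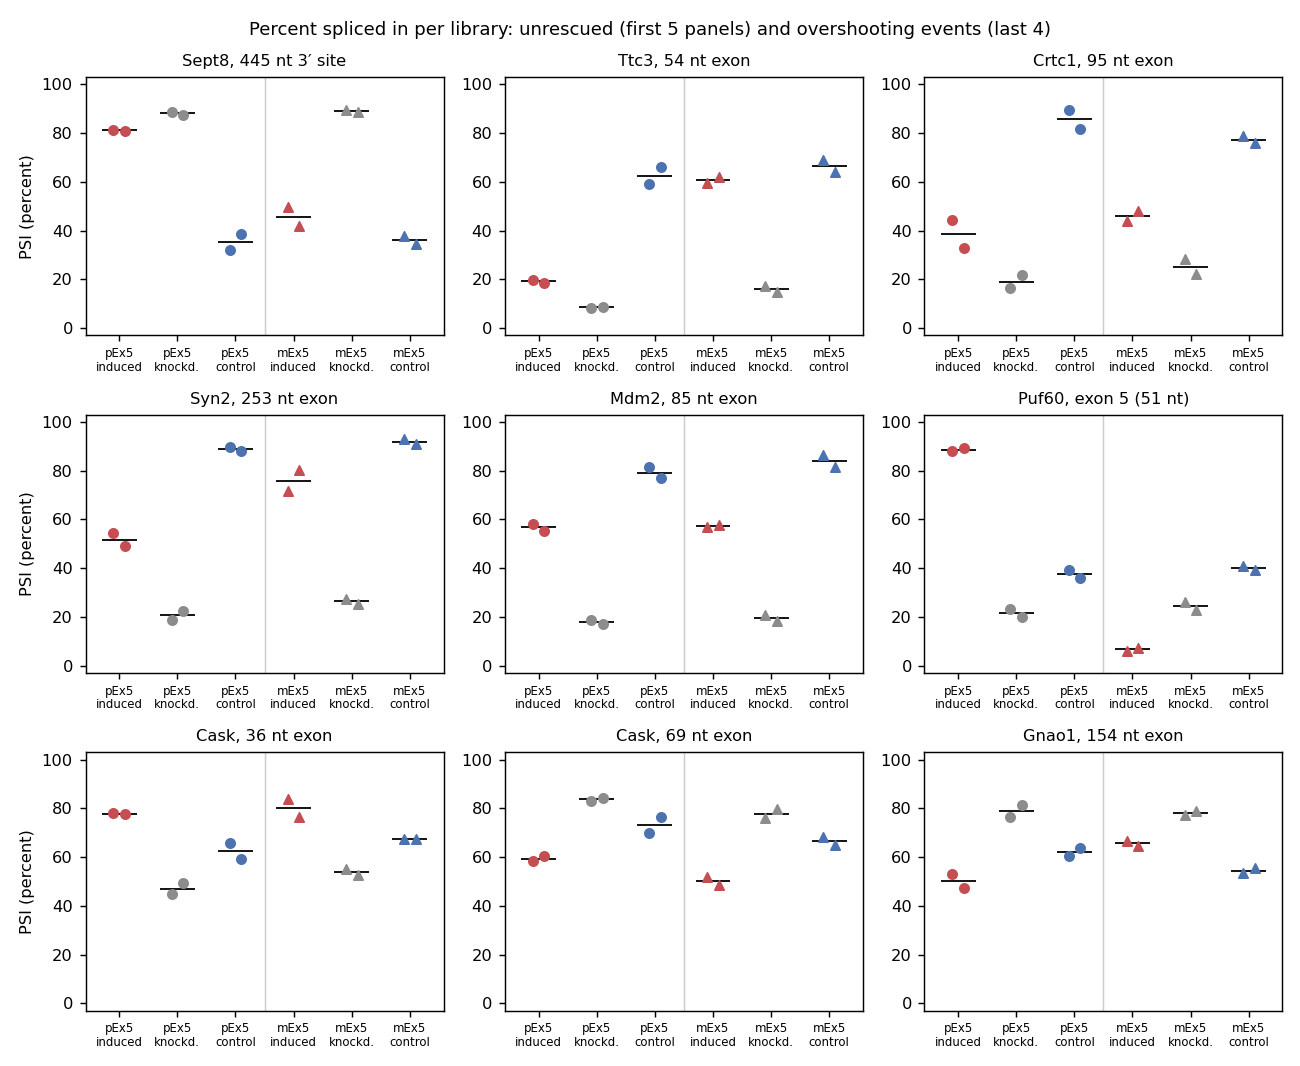
PSI in percent (vertical axis) of 9 events in each library; circles are pEx5 and triangles mEx5 libraries, red is induced, grey knockdown and blue control, and bars are group means of 2 libraries. In the first 5 panels the red circles lie between grey and blue or beside grey, as for Ttc3 at 19.7 and 18.7%; in the last 4 they lie on the far side of blue from grey, as for Cask.

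Targets with the strongest knockdown responses were restored to different degrees. The 253 nt exon of Syn2, which encodes a synaptic vesicle synapsin, reached 54.3 and 49.1% in pEx5 induced libraries, 18.9 and 22.7% in pEx5 knockdown libraries, and 89.7 and 88.2% in controls (-37.3 points from control, adjusted p = 9.66e-06). The Mdm2 exon of 85 nt, in the gene of the ligase that restrains p53, reached 58.3 and 55.1% in induced libraries, 18.9 and 17.1% on knockdown, and 81.5 and 76.9% in controls (adjusted p = 0.000297). The Grip1 exon of 156 nt, in a scaffold gene for glutamate receptors, was nearer control, at 76.6 and 76.9% in induced libraries, 24.8 and 25.7% on knockdown, and 94.3 and 93.8% in controls (adjusted p = 1.69e-05). These exons had thus regained part of their inclusion, with the induced libraries between the other groups and overlapping neither.

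An alternative 5′ site of the dynactin gene Dctn2 was used at 37.2 and 30.8% in induced libraries, against 8.57 and 14.4% in controls. An alternative 3′ site of the ubiquitin ligase gene Rnf111 was used at 29.6 and 31.7% in induced libraries, against 10.3 and 1.98% in controls. A Pnpla6 intron was retained at 50 and 42.03% in induced libraries, against 22.1 and 20.0% in controls (adjusted p = 0.0410). All of these remained above control without overlap, but the Pnpla6 values rested on 49 to 80 reads. The Pnpla6 call was lost under 11 of 22 other settings or library omissions. The 9 nt microexon of Nbea was not called: 82.2 and 76.2% in induced libraries, against 88.7 and 88.3% in controls (adjusted p = 0.0711), after 14.8 and 18.3% on knockdown. Nor was the 103 nt exon of the mitochondrial dehydrogenase gene Ogdh, at 52.3 and 52.9% in induced libraries, against 62.9 and 60.8% in controls, because its difference of -9.3 points was under the 10 asked for (adjusted p = 0.0348).

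Microexons also returned incompletely. Of 106 microexons lowered by mEx5 knockdown, 13 (12.3%) were still called lower in pEx5 induced cells, against 18.8% of the longer exons it lowered. The median PSI over the 106 was 51.9 after induction, 31.6 on knockdown and 59.6 in control. In mEx5 induced cells 11 of the 106 were called lower, against the same mEx5 controls that the sorting used. The largest departure was that of the 3 nt microexon of Ncam1, the neural cell adhesion molecule, at 25.5 and 24.1% in induced libraries, against 59.3 and 56.9% in controls (adjusted p = 3.82e-05). The Ncor1 microexon, in a gene for a nuclear receptor corepressor, was included at 31.3 and 31.4% in induced libraries, against 58.7 and 60.6% in controls (adjusted p = 9.04e-05). The Lphn1 microexon, in the gene of the adhesion receptor latrophilin, was included at 35.6 and 37.0% in induced libraries, against 61.4 and 58.0% in controls (adjusted p = 0.00461). In none of the 13 did an induced library reach the level of a control library, which the call on these same libraries makes likely and which adds nothing to it.

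The Dock4 microexon, in a gene for an activator of Rac GTPases, was used at 51.7 and 52.6% in induced libraries, against 68.8 and 69.6% in controls. That of Max, the partner of Myc proteins, was used at 40.5 and 41.3% in induced libraries, against 54.3 and 54.3% in controls. That of the retromer subunit gene Vps29 was used at 34.3 and 35.2% in induced libraries, against 47.2 and 47.2% in controls. The remaining unrescued microexons, in Mfsd6, Ckap5, Atl2, Bin1, Slc38a10, Tpd52l2 and Ptk2, were lower by 10.6 to 17.9 points. Of the 13 unrescued microexons, 7 matched a coding exon, and 6 of these have a length that is a multiple of 3, the exception being the 25 nt Mfsd6 microexon. A 24 nt microexon of the kinase gene Mink1 was lower in induced cells without a knockdown call: 54.7 and 55.1% in induced libraries, against 71.2 and 72.5% in controls, with a mEx5 knockdown change of -0.3 points.

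Overshooting was rare: 8 events, or 1.04% of those called, and 1 of them is Puf60 exon 5 itself, which the cDNA supplies. Of the events lowered by mEx5 knockdown 0.185% were called higher after induction, against 1.14% of all events tested. Of those raised by it 0.511% were called lower, against 2.23%. Knockdown targets were thus called past control less often than events in general were called in these directions. The adjacent exons of Cask, a scaffold kinase of neuronal membranes, moved in opposite directions. The 36 nt exon was included at 78.2 and 77.6% in pEx5 induced libraries, 44.8 and 49.4% on knockdown, and 65.8 and 59.3% in controls. The 69 nt exon was included at 58.5 and 60.3% in induced libraries, 83.2 and 84.2% on knockdown, and 70.04 and 76.6% in controls. Both crossed from one side of control on knockdown to the other after induction (15.3 and -13.9 points, adjusted p = 0.0196 and 0.0222). The mEx5 line showed departures of 12.7 and -16.5 points at these exons, and a difference between the lines was not called (adjusted p = 0.962 and 0.952).

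The Tead1 exon, in a gene for a transcription factor of the Hippo pathway, was included at 30.4 and 38.3% in induced libraries, 2.81 and 5.95% on knockdown, and 12.9 and 12.5% in controls (adjusted p = 0.00616). A 48 nt exon of the doublecortin-like kinase gene Dclk2 stood at 38.9 and 44.9% in induced libraries, against 29.4 and 30.7% in controls (adjusted p = 0.0481). Below control after induction lay a 195 nt exon of the methyltransferase gene Setd6, at 29.3 and 31.9% in induced libraries, against 44.0 and 44.2% in controls (adjusted p = 0.0126). In each of these the induced libraries and the knockdown libraries lay on opposite sides of control.

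The Cdk5rap2 microexon, in a centrosome gene, was included at 14.2 and 14.1% in pEx5 induced libraries, against 29.0 and 26.4% in controls (adjusted p = 0.0161). In the mEx5 line it was included at 38.1 and 33.7% after induction, against 28.5 and 22.3% in controls, a departure of 10.5 points that was not called (adjusted p = 0.139). The departures of the lines differed by -24.1 points (adjusted p of the difference = 0.0228). A 154 nt exon of Gnao1, which encodes the α subunit of the G protein Go, was included at 53.1 and 47.3% in pEx5 induced libraries, against 60.4 and 63.6% in controls, with a called difference between the lines of -23.0 points. For the Dclk2 and Gnao1 exons the adjusted p no longer passed under 16 of 22 other settings or library omissions each. For the exons of Cask, Setd6, Tead1 and Cdk5rap2 it no longer passed under 3 to 6 of 22. These counts do not take in the minimum difference or the knockdown call, which the class also needs. At a minimum of 15 points only 1 overshooting event was called. Without any one of 8 libraries (all but the pEx5 knockdown and mEx5 induced ones), 1 to 4 overshooting events were called.

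The 265 events called after induction but not on mEx5 knockdown had fewer reads behind the largest examples. A 134 nt exon of Pet112l was included at 52.5 and 56.1% in pEx5 induced libraries, against 88.8 and 88.5% in controls, on 88 to 158 reads (adjusted p = 0.00117). In the pEx5 knockdown it was already at 56.3 and 50.6%. The 54 nt exon of the splicing regulator Rbfox1 was included at 53.9 and 38.1% in induced libraries, against 82.7 and 79.3% in controls, on 26 to 74 reads (adjusted p = 0.0344). A Wdr90 intron, balanced at its ends, was retained at 81.0 and 79.1% in induced libraries, against 51.52 and 40% in controls. The Rbfox1 call was lost under 6 of 22 other settings or library omissions, and the Wdr90 call under 4 of 21. Several of these events had thus moved on knockdown in the pEx5 line, and with the pEx5 knockdown as the sorting comparison, which shares its controls, 580 events were unrescued and 8 overshooting, 6 of them overshooting by both knockdowns. Tead1 (-8.3 points, adjusted p = 0.0742) and Cdk5rap2 (3.4 points, adjusted p = 0.519) were not called on pEx5 knockdown and overshoot only by the mEx5 knockdown, while a 91 nt exon of Flot2 and a 117 nt exon of Pcm1 overshoot only by the pEx5 knockdown.

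The same departure was then read in the mEx5 line. There 318 events (1.4%) differed between mEx5 induced and control cells, against 767 in the pEx5 line. Called in both lines with the same sign were 82 events, 10.7% of the pEx5 list and 25.8% of the mEx5 list, and 3 were called with opposite signs. The departure itself differed between the lines for 118 events (0.518%), of which 63 were unrescued in the pEx5 line, and 62 of those 63 were not called in mEx5. Over all 494 unrescued events only 69 (14%) were called in mEx5 with the same sign. Choosing events by a difference between the lines also favours those without a mEx5 call. Without any one of the 8 induced and control libraries of the lines, 45 to 63 events differed between them. An exon of 295 nt of Pstk, a kinase that acts on selenocysteine tRNA, was included at 17.0 and 13.1% in pEx5 induced libraries, against 43.3 and 48.0% in controls, and at 51.7 and 55.6% in mEx5 induced libraries, against 40.9 and 41.4% in controls. A 39 nt exon of the neuronal RNA-binding protein gene Elavl2 was included at 22.9 and 22.0% in pEx5 induced libraries, against 37.1 and 40.1% in controls, and at 60.8 and 55.4% in mEx5 induced libraries, against 40.9 and 40.4% in controls. Both exons, chosen after their values were seen, stayed on the knockdown side of control in the pEx5 line. In the mEx5 line the Elavl2 exon was called above control (17.5 points, adjusted p = 0.00492), and the Pstk exon was not (12.5 points, adjusted p = 0.0844).

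Gene levels were compared on junction reads summed per gene, as log2 CPM, for the 10363 genes averaging 20 reads or more over the libraries. Since every library is a bulk sample, fewer cells of a kind and less RNA per cell cannot be told apart. In pEx5 induced cells 2998 genes (28.9%) differed from control at an adjusted p under 0.05, 1590 of them higher (15.3%) and 1408 lower (13.6%). Most of the differences were small: 499 genes were at least 1.5-fold higher and 114 at least 1.5-fold lower, and 180 and 19 passed 2-fold. Of 2720 called genes with an RPKM value in both groups in the authors' deposited table, 97.6% had the same direction there. By the mEx5 knockdown, 1736 genes (57.9%) were unrescued, 880 higher and 856 lower, 60 (2.00%) were overshooting, and 1202 (40.1%) were not called on knockdown. Without control library B 1885 genes were called, and without induced library A 1928.

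Of the 1855 genes lowered by mEx5 knockdown (17.9% of those tested), 856 (46.1%) were still lower in pEx5 induced cells, with a median log2 difference of -0.18 after induction and -0.35 on pEx5 knockdown. Of the 1859 genes raised by it (17.9%), 880 (47.3%) were still higher, with medians of 0.23 and 0.35. In the mEx5 line 2200 genes (21.2%) departed from control, and 1203 genes were called with the same sign in both lines, 40.1% of the pEx5 list and 54.7% of the mEx5 list, and 32 with the opposite sign. Of the unrescued genes 54% were called alike in the mEx5 line, as were 21.0% of those not called on knockdown. The sorting and the mEx5 departure share the mEx5 controls, so these shares are not independent of the sorting.

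Unrescued and higher were Myl9, a regulatory light chain of non-muscle and smooth muscle myosin, and Cd59a, a surface inhibitor of complement. Myl9 had 11.2 and 11.2 CPM in pEx5 induced libraries, against 1.52 and 2.05 CPM in controls, a log2 difference of 2.62 ± 0.13 (SE, adjusted p = 1.07e-10). Knockdown libraries held 13.3 and 17.1 CPM, so Myl9 stayed near its knockdown level after induction, lower by a log2 difference of -0.43 (adjusted p = 0.0254). Cd59a had 1.00 and 1.15 CPM in induced libraries, against 0.197 and 0.168 CPM in controls. Cdsn, which encodes corneodesmosin of the skin, had 4.69 and 3.72 CPM in induced libraries, 1.502 and 1.255 CPM on knockdown, and 0.270 and 0.562 CPM in controls, and Sprr2f had 0.628 and 1.42 CPM in induced libraries, against 0.0246 and 0.197 CPM in controls. All of these were lowly expressed in pEx5 controls.

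Gpr56, an adhesion receptor gene, differed from the others. It had 11.7 and 9.94 CPM in pEx5 induced libraries, 0.334 and 0.409 CPM in pEx5 knockdown libraries, and 0.369 and 0.0281 CPM in controls (log2 difference 5.76 ± 0.45, SE, adjusted p = 2.74e-08). The mEx5 line had 31.5 and 29.9 CPM after induction, 0.613 and 0.849 CPM on knockdown, and 0.261 and 0.212 CPM in control. The gene was thus near its floor in all 8 libraries without doxycycline and well above it in all 4 with it. Its place among the unrescued genes rests on the small mEx5 knockdown difference (adjusted p = 0.0210).

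Unrescued and lower was Ift20, a subunit of the intraflagellar transport machinery of cilia. It had 20.8 and 20.3 CPM in pEx5 induced libraries, 28.3 and 29.3 CPM on pEx5 knockdown, and 49.99 and 50.28 CPM in controls (log2 difference -1.28 ± 0.08, SE, adjusted p = 5.40e-10). In mEx5 cells it had 50.7 and 53.7 CPM after induction, against 49.1 and 46.2 CPM in control. Ift20 thus returned to control in mEx5 induced cells and went lower than knockdown in pEx5 induced cells, with a difference between the lines of -1.42 (adjusted p = 4.61e-07). Tmeff1, a transmembrane protein with follistatin-like domains, had 68.9 and 68.0 CPM in induced libraries, 64.0 and 62.0 CPM on knockdown, and 149 and 149 CPM in controls (adjusted p = 1.15e-10). Arpp21, a phosphoprotein regulated by cyclic AMP, had 6.95 and 7.79 CPM in induced libraries, against 16.3 and 15.9 CPM in controls. Both stayed at the knockdown level, and in the mEx5 line too they were called lower after induction, by -0.96 and -0.83 on the log2 scale. The small GTPase Rab32 and the zinc finger gene Zfp239 were lower by log2 differences of -1.07 and -1.05. For Zfp239 the authors' RPKM went the other way, at 22.3 in induced cells and 18.2 in controls.

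**Figure D4:**
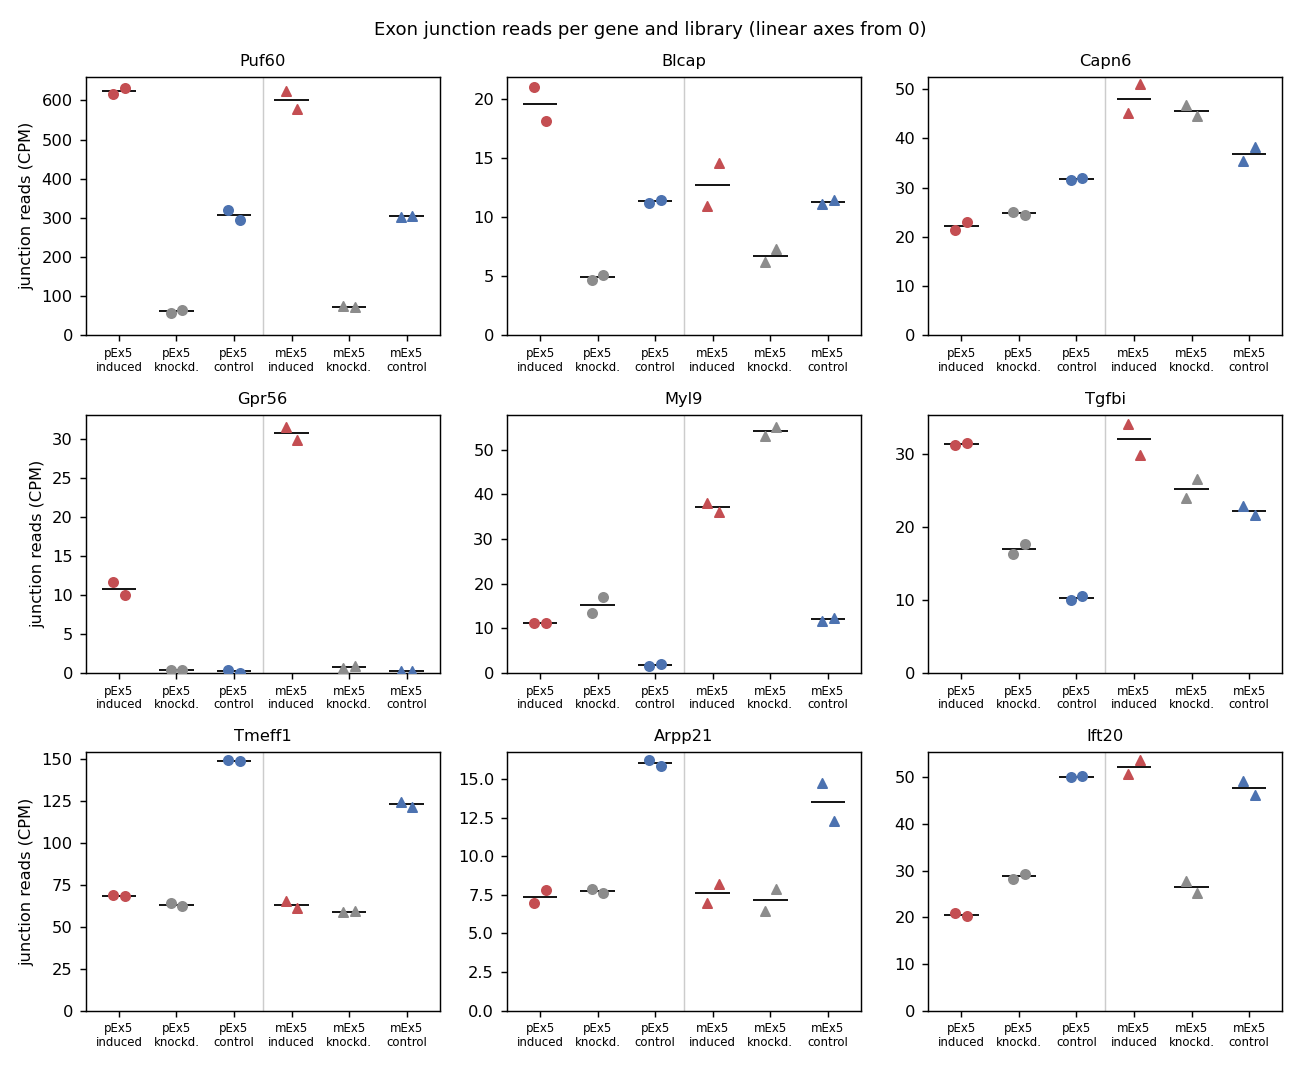
Junction reads per gene in CPM (vertical axes, linear, from 0) in each library; circles are pEx5 and triangles mEx5, red is induced, grey knockdown and blue control, and bars are means of 2 libraries. Puf60 and Blcap lie above control after induction, Gpr56 is high only where doxycycline was given, Tmeff1 and Arpp21 stay at their knockdown level in both lines, and Ift20 after induction stays low in pEx5 and not in mEx5.

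Of the 1855 genes lowered by mEx5 knockdown, 40 (2.16%) were called higher after induction, against 15.3% of all genes. Of the 1859 raised by it, 20 (1.08%) were called lower, against 13.6% of all genes. Besides Puf60, overshooting genes were Blcap, Ak5, Entpd3 and Dnahc1 among those higher. Blcap had 21.0 and 18.2 CPM in induced libraries, 4.70 and 5.13 CPM on knockdown, and 11.2 and 11.5 CPM in controls (log2 difference 0.78 ± 0.14, SE, adjusted p = 0.000292). Entpd3, an enzyme that breaks down extracellular nucleotides, had 44.6 and 45.0 CPM in induced libraries, 21.7 and 21.0 CPM on knockdown, and 27.2 and 28.1 CPM in controls. In both genes induction carried the level past control from below. Ak5, an adenylate kinase, was higher by 0.78 and Dnahc1, an axonemal dynein heavy chain, by 0.65 on the log2 scale.

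Overshooting and lower were Wdr70, Rg9mtd2, Pi4k2b, Rdh11 and Capn6. Wdr70 had 34.2 and 36.6 CPM in induced libraries, 53.6 and 56.6 CPM on knockdown, and 46.2 and 48.2 CPM in controls (adjusted p = 0.000452). The authors' deposited RPKM puts Wdr70 at 73.7 in induced, 64.4 in knockdown and 81.5 in control cells of this line, which is no overshoot, since there knockdown lies on the same side of control as induction. For Rg9mtd2, the lipid kinase gene Pi4k2b and the retinol dehydrogenase gene Rdh11 the log2 differences were between -0.38 and -0.24. Ak5, Dnahc1, Rg9mtd2, Pi4k2b and Rdh11 were not called on pEx5 knockdown (adjusted p = 0.0770 to 0.308), so they overshoot only by the mEx5 knockdown. The same holds for Capn6, a calpain-like gene, which rose on mEx5 knockdown. In the pEx5 line Capn6 had 21.5 and 23.0 CPM in induced libraries, 25 and 24.52 CPM on knockdown, and 31.5 and 32.0 CPM in controls, and so was lower in both.

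Among genes not called on mEx5 knockdown, the matrix protein gene Tgfbi had 31.3 and 31.6 CPM in pEx5 induced libraries, 16.4 and 17.7 CPM on pEx5 knockdown, and 9.95 and 10.6 CPM in controls (log2 difference 1.61 ± 0.09, SE, adjusted p = 5.40e-10). It was also higher after induction in the mEx5 line, by 0.52 (adjusted p = 0.000540), and the lines differed by 1.09. Des, which encodes the muscle intermediate filament desmin, had 2.11 and 1.30 CPM in induced libraries, against 0.467 and 0.449 CPM in controls, and Dapk2, AI118078 and Acy3 were higher by 1.43 to 1.66 on the log2 scale. In the pEx5 line these 4 genes were already higher on knockdown, by 1.27 to 1.48 (adjusted p = 0.000193 to 0.000879). Abcb4, a phospholipid transporter gene, had 0.554 and 0.460 CPM in induced libraries, 1.67 and 1.28 CPM on knockdown, and 1.01 and 1.52 CPM in controls. Micalcl, Smarca1, BC030307 and Wibg were lower by log2 differences of -1.31 to -0.97. All but Smarca1 were also called lower on pEx5 knockdown, by -1 to -0.63. Smarca1 was near its floor in the pEx5 line, at 0.148 and 0.230 CPM in induced libraries, against 0.418 and 0.646 CPM in controls. Most of its reads came from the mEx5 line, at 2.32 to 4.61 CPM, so its pEx5 difference rests on few reads. The adjusted p of Smarca1 no longer passed under 3 of 19 other settings or library omissions.

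A set of 252 genes was called with the same sign in both induced lines without a mEx5 knockdown call, 138 higher and 114 lower. Among those averaging 50 reads or more, and chosen after values were seen, the largest were Tgfbi, Igdcc4, Mxra8, Csdc2 and Gfra1 among those higher and Mycn, Dazl, Aldh1b1, Pygl and Mcrs1 among those lower. For Mcrs1 the authors' deposited RPKM showed no fall, at 99.1 in pEx5 induced and 98.3 in pEx5 control cells. Mycn, the neural member of the Myc family, had 2.40 and 2.46 CPM in pEx5 induced libraries, against 4.35 and 4.04 CPM in pEx5 controls, and 1.99 and 1.36 CPM in mEx5 induced libraries, against 3.50 and 2.93 CPM in mEx5 controls. Gfra1, a receptor for the growth factor GDNF, had 9.97 and 10.2 CPM in pEx5 induced libraries, against 4.69 and 3.90 CPM in pEx5 controls.

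Genes of the integrated stress response, the program driven by phosphorylation of eIF2α and the transcription factor ATF4, were higher after induction. Of 31 measured members 27 were higher and none lower (background 15.3% and 13.6%), with a median log2 difference of 0.41 over the 31, against 0 over all genes. In the pEx5 knockdown 20 were higher and 2 lower, with a median of 0.21, and in the mEx5 departure 28 were higher with a median of 0.59. Cth, the cystathionine lyase of cysteine synthesis, had 194 and 210 CPM in induced libraries, 107 and 107 CPM on knockdown, and 93.4 and 99.9 CPM in controls (log2 difference 1.06 ± 0.06, SE, adjusted p = 5.40e-10). Slc7a11, the cystine transporter, had 22.6 and 23.0 CPM in induced libraries, 15.3 and 14.8 CPM on knockdown, and 9.06 and 9.15 CPM in controls. For these genes induced libraries lay above the knockdown as well as the controls.

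Aldh1l2, a mitochondrial folate enzyme, had 325 and 320 CPM in induced libraries, 251 and 248 CPM on knockdown, and 169 and 179 CPM in controls. Pck2, the mitochondrial PEP carboxykinase, had 359 and 350 CPM in induced libraries, 343 and 352 CPM on knockdown, and 210 and 199 CPM in controls. Trib3, a pseudokinase induced by stress, had 54.2 and 58.5 CPM in induced libraries, against 30.4 and 28.0 CPM in controls. Atf4 itself did not pass the test, at 563 and 571 CPM in induced libraries, against 545 and 552 CPM in controls (adjusted p = 0.473). Against the knockdown in the same line 11 members were higher after induction and 1 lower.

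The promoters of these members were searched for the C/EBP-ATF composite site, written TGATGNAA or on the other strand TTNCATCA, in the 300 bases that RefSeq (GRCm38.p6) gives around each start. The 27 higher members included 21 with a promoter in the table, and 10 of the 21 held a match, against 4.51% of 27025 genes. A match is only a run of letters. The list was made up of genes of the ATF4 program, and only its called members were searched. The share therefore does not tell which members stayed high. The stretches below, with the match in capitals, come from Chac1, a glutathione-degrading enzyme (chr2:119351009-119351096, plus strand), Nupr1, a stress-induced nuclear protein (chr7:126625533-126625620, minus strand), Pycr1, of proline synthesis (chr11:120643804-120643891, minus strand), and Slc7a11 (chr3:50443632-50443719, minus strand), where a further match downstream is left in lower case.
Chac1: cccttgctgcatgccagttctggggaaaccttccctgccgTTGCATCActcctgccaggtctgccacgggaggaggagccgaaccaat
Nupr1: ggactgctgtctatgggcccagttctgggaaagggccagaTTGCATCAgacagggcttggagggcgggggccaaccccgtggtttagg
Pycr1: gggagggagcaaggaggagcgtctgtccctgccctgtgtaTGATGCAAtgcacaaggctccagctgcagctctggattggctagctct
Slc7a11: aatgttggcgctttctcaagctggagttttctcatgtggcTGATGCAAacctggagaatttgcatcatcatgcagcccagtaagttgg
Chac1 junction reads stood at 76.3 and 73.3 CPM in induced libraries, 56.0 and 56.9 CPM on knockdown, and 50.3 and 49.9 CPM in controls.

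Genes of cholesterol synthesis and uptake were lower after induction. Of 21 measured members 17 were lower and none higher, where 13.6% of all genes were lower and 15.3% higher. The median log2 difference was -0.43 after induction and -0.30 on pEx5 knockdown. Insig1, the sterol-regulated retention protein of the ER, had 11.9 and 11.4 CPM in induced libraries, 13.2 and 11.6 CPM on knockdown, and 25.3 and 21.9 CPM in controls (log2 difference -1.02 ± 0.13, SE, adjusted p = 7.68e-06). Stard4, a sterol carrier, was lower by a log2 difference of -0.69. Of the 12 lower members with a promoter in the RefSeq table none held the sterol response letters TCACNCCAC on either strand, a run found in 1.44% of all genes. With so rare a run, its absence from 12 genes is not informative. The mEx5 departure held 18 lower members, with a median of -0.37.

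Cell cycle genes were also lower. Of 39 S phase genes 28 were lower and none higher, with a median of -0.27 after induction and -0.24 on pEx5 knockdown. Of 24 G2/M genes 15 were lower and none higher, with medians of -0.18 and -0.10. The background was 13.6% of all genes lower and 15.3% higher. Mcm6, a subunit of the replicative helicase, had 216 and 218 CPM in induced libraries, 224 and 223 CPM on knockdown, and 358 and 369 CPM in controls (adjusted p = 1.04e-08). E2f1, a transcription factor of the G1/S transition, had 28.0 and 32.9 CPM in induced libraries, against 49.0 and 50.6 CPM in controls. Ccna2, cyclin A, had 269 and 289 CPM in induced libraries, against 349 and 358 CPM in controls. Against the pEx5 knockdown, 6 S phase genes were higher after induction and 2 lower.

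Among RNA-binding splicing factors, hnRNP and SR protein genes were lower where they changed. Of 18 hnRNP genes 10 were lower and none higher (median -0.19). Of 10 SR protein genes 5 were lower and none higher (median -0.19). Over all genes 13.6% were lower and 15.3% higher. In the mEx5 departure 4 hnRNP genes and no SR protein gene were called lower. With total junction reads as the scaling, 10 hnRNP and 4 SR protein genes were lower in the pEx5 line. Hnrnph1 had 1056 and 1056 CPM in induced libraries, 947 and 964 CPM on knockdown, and 1381 and 1501 CPM in controls, and Srsf6 had 159 and 161 CPM in induced libraries, against 220 and 207 CPM in controls. Of 25 factors of the U2 snRNP and the 3′ splice site 2 were higher and 5 lower, and of 21 neural splicing regulators 1 was higher and 5 lower, shares close to the 28.9% called over all genes. The helicase gene Ddx46 had 575 and 535 CPM in induced libraries, 591 and 597 CPM on knockdown, and 324 and 330 CPM in controls, while Sf1, which encodes the branch point binding protein, had 386 and 404 CPM in induced libraries, against 496 and 497 CPM in controls. Ptbp2, the neural polypyrimidine tract binding protein, had 66.3 and 69.9 CPM in induced libraries, 30.5 and 32.1 CPM on knockdown, and 111 and 128 CPM in controls (adjusted p = 2.18e-07), so it had regained part of its level. Of 16 genes of nonsense-mediated decay 1 was higher and 2 lower.

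**Figure D5:**
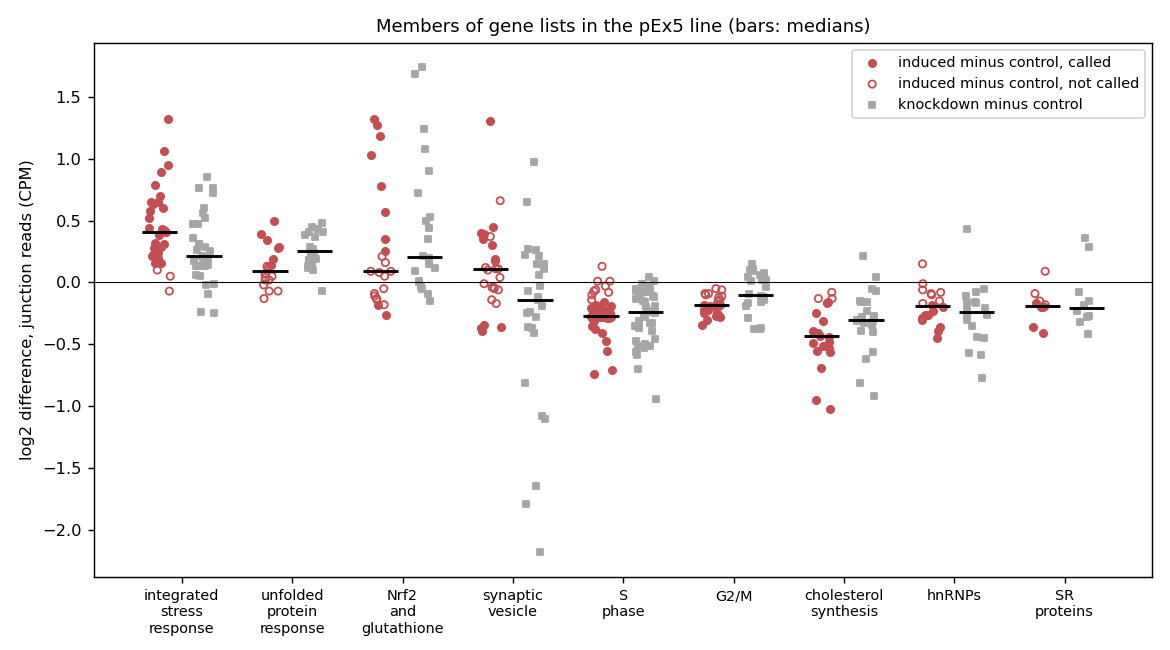
Log2 difference in junction reads (vertical axis) of each measured member of 9 gene lists in the pEx5 line; red circles are induced minus control, filled where called, grey squares are knockdown minus control, and bars are medians. The integrated stress response lies above 0 after induction (median 0.41), and cholesterol synthesis (median -0.43), S phase (median -0.27), hnRNP and SR genes lie below 0.

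Of 20 genes of the unfolded protein response 7 were higher and none lower, with a median of 0.09 after induction against 0.26 on pEx5 knockdown, where 15 were higher. Of 22 Nrf2 and glutathione genes 8 were higher and 2 lower, with Gstm1, a glutathione transferase, at 7.61 and 7.60 CPM in induced libraries, 11.2 and 9.93 CPM on knockdown, and 2.75 and 3.51 CPM in controls. Of 17 p53 targets 6 were higher and none lower, among them the cell cycle inhibitor Cdkn1a by a log2 difference of 0.47. Of 10 heat shock genes 4 were higher and none lower, while in the mEx5 departure none were higher and 3 were lower. Of 27 synaptic vesicle genes 8 were higher and 4 lower. The background for the lists of this paragraph was 15.3% of all genes higher and 13.6% lower, and the lower share of synaptic vesicle genes was close to it. Syn2, whose exon is described above, had 275 and 279 CPM in induced libraries, 221 and 223 CPM on knockdown, and 120 and 106 CPM in controls, so its junction reads were above control while its 253 nt exon was used less.

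Of 14 contractile genes 5 were higher and 2 lower, with Acta2, smooth muscle actin, higher by 1.55. Of 15 noradrenergic neuroblastoma genes 3 were higher and 4 lower. Glycolysis genes had 3 higher and 3 lower of 16, mitochondrial stress genes 4 higher and 2 lower of 13, mitochondrial ribosome genes 2 higher and 8 lower of 40, and interferon response genes 1 higher and 1 lower of 10, beside 28.9% of all genes called. With total junction reads as the scaling, mitochondrial ribosome genes had 2 higher and 3 lower and mitochondrial stress genes 4 higher and none lower. The mitochondrially encoded genes have no exon junctions. In the authors' deposited RPKM, a single value per group, the 13 of them summed to 65060 in induced cells and 56410 in controls, with mt-Nd3 at 6263 in induced cells and 2801 in controls and mt-Co1 at 3105 in induced cells and 4467 in controls. These values have no replicate check.

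The departure from control differed between the lines for 440 genes (4.25%), 284 with a more positive (2.74%) and 156 with a more negative (1.51%) difference in pEx5. Leaving out a library gave 109 to 516 such genes, the fewest without control library B of the pEx5 line. Slc22a18, a transporter gene, had 5.73 and 6.98 CPM in pEx5 induced libraries, against 1.65 and 1.32 CPM in pEx5 controls, and 3.49 and 3.62 CPM in mEx5 induced libraries, against 3.28 and 3.63 CPM in mEx5 controls (difference of 2.01, adjusted p = 0.000137). Ahnak, a large scaffold protein gene, had 13.67 and 10.97 CPM in pEx5 induced libraries, 6.20 and 5.73 CPM on knockdown, and 5.58 and 5.22 CPM in controls, and showed a mEx5 difference of -0.01 (adjusted p of the difference = 0.0173). Cyb5r2, a cytochrome b5 reductase, moved oppositely, at 16.2 and 16.3 CPM in pEx5 induced libraries, against 19.7 and 20.9 CPM in pEx5 controls, and 29.9 and 28.2 CPM in mEx5 induced libraries, against 15.22 and 15.99 CPM in mEx5 controls. These 3 genes were chosen after their values were seen.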

How the data were processed

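Polyadenylated RNA of N2A cells was sequenced in 12 libraries, 6 groups of 2. Percent spliced in, in percent, and text with the corrected reads per event came from the table deposited by the authors, made with vast-tools per its name. The authors' deposited RPKM table gave each group 1 rpkm per gene, for which the submitters' processing notes name Salmon 0.14.1, edgeR and mm10. Its columns of log2 fold change and of p-value and FDR, made by the authors for the pEx5 knockdown, were not used. The splicing table's assembly is not given in the sources used here. The reads gave the deposited percent to within 0.02 points for 98.89% of values. The junction counts summed here per gene can themselves move with splicing.

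Events were fitted with limma 3.58.1 (R 4.3.3) on log2 odds of inclusion reads (pseudocount 0.5, weights from the reads with a variance floor of 0.01), and genes with limma on log2 CPM (prior count 2, median-of-ratios scaling), over all 12 libraries with 1 coefficient per group, then adjusted over all events or genes. The count-based edgeR test was not used, since no deposited column holds raw counts. Both fits were tested on simulated data. The replicate letters did not pair the samples. Members, lists and classes were chosen with earlier results of these data known. Named were, per class and direction, the 5 events with the largest PSI difference and the 5 genes with the largest log2 difference (mean of at least 50 reads). Such events had none of the 4 libraries under 20 reads and no overlap between induced and control libraries. Puf60, fixed knockdown targets and 2 to 4 members per list were named as well. Other items are said to be chosen later. List symbols were matched through older symbols in RefSeq (GRCm38.p6). Of 539 called exons and microexons 431 matched a GENCODE exon. Some items that these rules name are not reported here.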

Additional observations from a re-analysis of the deposited data

Results flagged for a closer look

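The departure from control was tested between the lines, and 118 splicing events and 440 genes differed (limma, adjusted p under 0.05). Among the named events, the pEx5 departure exceeded the mEx5 one by 84.5 points at Puf60 exon 5, which the cDNAs themselves set, and by 36.3 points at the 445 nt 3′ site of Sept8. It was more negative by -39.9 points at the 265 nt site of Sept8, -37.7 points at the Ttc3 exon, -24.1 points at the Cdk5rap2 microexon and -23.0 points at the Gnao1 exon. Among the named genes the difference between lines on the log2 scale was 1.00 for Myl9, 1.09 for Tgfbi, -1.42 for Ift20, -0.89 for Capn6, -0.52 for Wdr70 and -1.02 for Micalcl. For Myl9 both lines were higher after induction, by 2.62 in pEx5 and 1.63 in mEx5, and for Capn6 the lines moved in opposite directions, by -0.51 in pEx5 and 0.38 in mEx5.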

How the results depend on the processing

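Without read weights 251 events were called, 152 exons and microexons lower and 54 introns higher, with 172 unrescued, 2 overshooting and 2 that differed between lines. At a minimum of 15 points the numbers were 413, 248, 76, 239 unrescued and 1 overshooting. A variance floor of 0.05 left 2 overshooting events and 26 that differed between lines. With balanced introns only (an alternative chosen after seeing the data) 77 introns were higher. Asking for 1.5-fold left 613 genes (499 higher, 114 lower), 283 unrescued, 3 overshooting and 119 that differed between lines. Leaving out each of the 12 libraries in turn gave 347 to 801 events, 250 to 477 exons and microexons lower, 33 to 155 introns higher, 264 to 519 unrescued and 1 to 8 overshooting events, and 45 to 118 that differed between lines. For genes it gave 1885 to 3179 called, 1030 to 1655 higher, 833 to 1524 lower, 1261 to 1836 unrescued, 28 to 72 overshooting and 109 to 516 that differed between lines. The fit then takes the lone library's variance from the remaining groups. With the replicate block 759 events and 2985 genes were called and no count moved by over 1.5 times; the letters share only a number, since same-lettered libraries deviated together at a correlation of -0.02 to 0.03 for PSI and -0.13 to 0.16 for log2 CPM. Total junction reads as scaling shifted the median gene by 0.03 on the log2 scale and gave 1819 genes higher and 1124 lower, so that 61.8% of calls were higher against 53% with the main scaling. It turned no called list member round. No named event or gene reversed in any setting run; 151 of 785 event values and 8 of 623 gene values no longer had an adjusted p under 0.05. Fits on the pEx5 libraries alone give no class.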
